A study of Mus musculus with 20 samples.

Results

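Genes that are used to describe myeloid-derived suppressor cells were followed in mouse blood: Arg1, Nos2, Il4ra, Cd274, Tgfb1, Ptgs2, Vegfa, Cd84 and Entpd1. All probes of these 9 genes were taken by name or older alias, which gave 14 of the 41174 probes on the array. Of the 14, 7 probes of 6 genes passed the filter on signal, out of 20898 probes that did. The blood came from 4 female C57Bl/6 mice, numbered 305, 310, 315 and 320, each bled before a subcutaneous dose of Hepa1-6 cells (day 0) and on days 10, 15, 20 and 25 after it. Hepa1-6 is a hepatoma line of the mouse. All 4 mice received the cells, so no tumour-free group was followed alongside them. On each of the 20 two-colour Agilent arrays, Cy5 carried the blood RNA of 1 mouse on 1 day, and Cy3 carried a common reference of blood from untreated C57Bl/6 mice. A log2(Cy5/Cy3) above 0 therefore means more signal in the mouse than in the reference.

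Myeloid-derived suppressor cells are immature or pathologically activated neutrophils and monocytes that build up in tumour-bearing hosts and restrain T cells. They do so by using up arginine (arginase 1, encoded by Arg1), making nitric oxide (Nos2) and prostaglandins (Ptgs2), releasing TGF-beta (Tgfb1) and VEGF (Vegfa), showing PD-L1 (Cd274) and breaking down extracellular ATP (CD39, encoded by Entpd1). Il4ra, the receptor chain for IL-4 and IL-13, and Cd84, a receptor of the SLAM family, have been used as surface markers of these cells. Whole blood mixes all its cell types, so fewer cells of a type and less RNA per cell cannot be told apart.

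The arrays of each day lay on 1 slide that held no other day, so day and slide cannot be told apart. The day 0 slide was brighter in both channels. Its median net signal (mean signal less local background) was 50.1 to 69.6 in Cy5 and 79.6 to 110 in Cy3, against 13.0 to 29.7 and 7.82 to 26.4 on later days. Between 38.1% and 52.2% of spots were well above background in Cy5. Defining markers of blood cells were present: 8 of 9 mature neutrophil, 7 of 8 monocyte, 6 of 7 T cell and 5 of 6 B cell markers were well above background on all 20 arrays. Elane, of the immature granulocyte list, was well above it on none.

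A fault of the background correction bears on every value below. Normexp, which models each channel as signal plus normal background, was fitted on all spots. In all, 251 of 900360 spots (0.0279%), and between 0 and 67 per array, had a net signal under -50, down to -65268. On 13 of the 20 arrays, all of days 0 and 15 among them, the fitted background SD then exceeded 30 in at least 1 channel, with a maximum of 814. Up to 83.9% of the probes on an array lay within 0.05 of a log2 ratio of 0. With those 251 spots left out, the fitted SD was 1.42 to 4.20 in Cy5 and 1.19 to 4.22 in Cy3, and 12.5% to 22.3% of probes lay that close to 0. No spot of the 14 probes was among the 251. Both sets of values are given: "all-spot" values, from the fit on every spot, are the primary result, and "trimmed" values, from the fit without those spots, were added after the data had been seen.

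For Nos2, Ptgs2 and Vegfa, 3 of the 9 genes, the arrays gave no usable level in blood. Nos2 (10 spots), both Ptgs2 probes, and 2 of the 3 Vegfa probes were well above background in Cy5 on none of the 20 arrays. The remaining Vegfa probe, A_51_P482552, was well above it on 1 array. A second Cd274 probe, A_51_P388092, was well above it on none. Over the 20 arrays, the log2 ratios of these 7 probes ran from -0.19 to 0.20 (all-spot) and from -0.29 to 0.41 (trimmed). Signal this close to background sets no limit on how many cells carried the transcripts. A probe that the array calls COX2 measures the mitochondrial cytochrome oxidase subunit, not Ptgs2, and was left out.

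Arg1 was detected in part. Its probe A_51_P303160 was well above background in Cy3 on no array. In Cy5 it was so on 3, 2, 2, 1 and 2 of 4 arrays at days 0, 10, 15, 20 and 25. The main Entpd1 probe, A_51_P504337, was well above background in Cy5 on 19 of 20 arrays. The other, A_52_P21835, was well above it on all 4 arrays of day 0 and 3 of day 25, and on none between. The probes of Il4ra, Cd274 (A_51_P248666), Tgfb1 and Cd84 were well above background on all 20 arrays, and no probe was saturated.

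**Figure D1:**
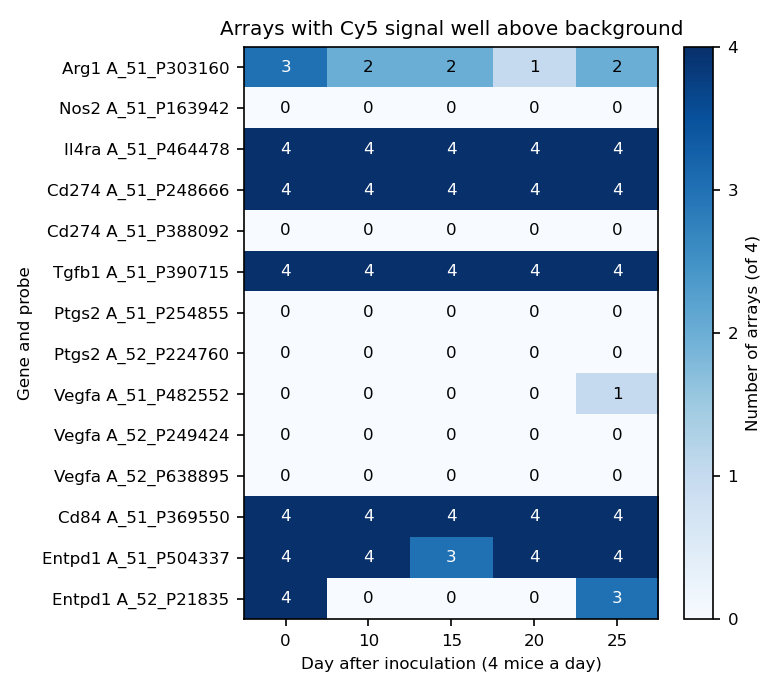
Number of arrays, of 4 per day, on which each of the 14 probes (rows, by gene and probe) was well above background in Cy5 on each day (columns, in days after inoculation). Il4ra, Tgfb1, Cd84 and 1 Cd274 probe are at 4 on every day, and the probes of Nos2 and Ptgs2 are at 0.

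Against day 0, the count of member probes that passed the test rested on the background fit. In the all-spot values none of the 7 did at day 10, 15, 20 or 25 (limma, Benjamini-Hochberg over all probes, threshold 0.05). At an unadjusted p under 0.05 there were 1, 1, 2 and 3. Over all probes tested, 11.2%, 5.89%, 2.94% and 0.148% passed at these days. In the trimmed values 4 of the 7 passed at day 10, 2 at day 15, 2 at day 20 and 2 at day 25, where 36.5%, 38.8%, 19.6% and 15.3% of all probes did. Without the dimmer Entpd1 probe, which met the filter only through days 0 and 25, these were 3, 1, 1 and 2 of 6. The trimmed median over the 7 probes was 0.02, -0.13, -0.16 and -0.21 at these days, beside -0.07, -0.06, -0.06 and -0.05 over all probes. These 4 comparisons share the day 0 arrays. In the F test over the 5 days, 2 of 7 passed in the all-spot values (27% of all probes) and 4 of 7 in the trimmed values (55.4%), or 3 of 6 without that Entpd1 probe. No member probe passed at day 15 against day 10 (0.00957% of all probes, 2.81% trimmed) or day 20 against day 15 (0.0431%, 6.5% trimmed). At an unadjusted p under 0.05 there were 0 and 2 in the all-spot values and 1 and 1 in the trimmed values.

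Entpd1 encodes the ectoenzyme that turns extracellular ATP and ADP into AMP, the step before adenosine. In the trimmed values it was lower than before inoculation at each later day by its brighter probe. The trimmed log2 ratios of A_51_P504337 at day 0 were 0.33, 0.65, 0.89 and 0.83 in mice 305, 310, 315 and 320. They were -0.15, 0.04, 0.23 and 0.03 at day 10, and 0.14, -0.16, 0.08 and 0.22 at day 15. At day 20 they were 0.12, 0.19, 0.03 and -0.02, and at day 25 they were 0.19, 0.30, 0.24 and 0.18. All 16 later values lay below all 4 day 0 values, which came from a separate slide. The share of all probes whose days did not overlap was not counted, here or for any probe below. The change was -0.64 at day 10 (SE 0.11, adjusted p = 0.000293), -0.61 at day 15 (adjusted p = 0.000255), -0.59 at day 20 (adjusted p = 0.00129) and -0.45 at day 25 (adjusted p = 0.0102). Each was lower in 4 of 4 mice and passed with any 1 array left out. Over all probes 36.5%, 38.8%, 19.6% and 15.3% passed at these days in the trimmed values.

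In the all-spot values the same probe read 0.16, 0.25, 0.09 and 0.27 at day 0 and between -0.06 and 0.24 later. The changes were -0.16, -0.19, -0.14 and -0.03 at days 10, 15, 20 and 25, with adjusted p of 0.0930, 0.0640, 0.176 and 0.803. No call was made. The day 15 change did pass without day 0 mouse 315, day 20 mouse 310 or day 25 mouse 310, and the F test passed without each of these or day 10 mouse 315. Day 25 against day 10 (0.12) passed without day 25 mouse 310, at 0.17 and an adjusted p of 0.0290. The authors' deposited log ratio, converted to log2, gave -1.38, -1.16, -1.24 and -0.71, of which all but day 25 passed.

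The dimmer Entpd1 probe, A_52_P21835, had trimmed values of 0.63, 0.52, 0.52 and 0.43 at day 0. They were 0.10, 0.17, -0.04 and 0.06 at day 10, and 0.03, -0.32, 0.00 and -0.30 at day 15. Day 20 gave 0.33, 0.42, -0.11 and 0.05, and day 25 gave 0.11, 0.21, 0.31 and 0.43. No later value reached the lowest day 0 value. The probe was well above background in Cy5 on no array of days 10, 15 or 20, and in the reference channel on none of the 20. It met the filter only through the days on which it was brighter, so a difference from those days was built into its choice and its tests are not used. Its net signal in Cy5 was 59.5 to 89.2 at day 0, -1.64 to 22.8 on days 10 to 20, and 20.8 to 28.5 at day 25. In Cy3 it was 62.7 to 90.2 at day 0 and -3.65 to 20.0 later. Normalized mean Cy5 signal at day 0 was 1.20-fold that of day 10, 1.36-fold that of day 15 and 1.22-fold that of day 20 (trimmed). In all-spot values the folds were 1.03, 1.06 and 1.02. These folds compare measured means without an error, and set no lower bound on the difference. The trimmed change at day 20 was -0.36 and the all-spot change was 0.04, of the opposite sign.

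Values that moved with Entpd1 were as follows. Its net signal on A_51_P504337 at day 0 was 286 to 399 in Cy5 and 95.9 to 167 in the reference channel, against 20.4 to 160 and 25.1 to 59.0 later. The mean trimmed log2 ratio of 8 mature neutrophil markers was 0.82 to 1.46 over the day 0 arrays. It was -0.51 to 0.17 at day 10, -0.21 to 0.16 at day 15, -0.59 to 0.16 at day 20 and 0.10 to 0.59 at day 25. All 8 were detected on every array, and their part in the result was not tested. Over the 20 arrays, the trimmed values of the 2 Entpd1 probes had a Pearson r of 0.644, with slides shared within a day. The dimmer probe was kept only through its brighter days, so this r is no independent support for the brighter one. The named genes whose trimmed values were most like those of A_51_P504337 were Il1r2 (r = 0.936), Slfn4 (0.933) and Kdr (0.931).

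**Figure D2:**
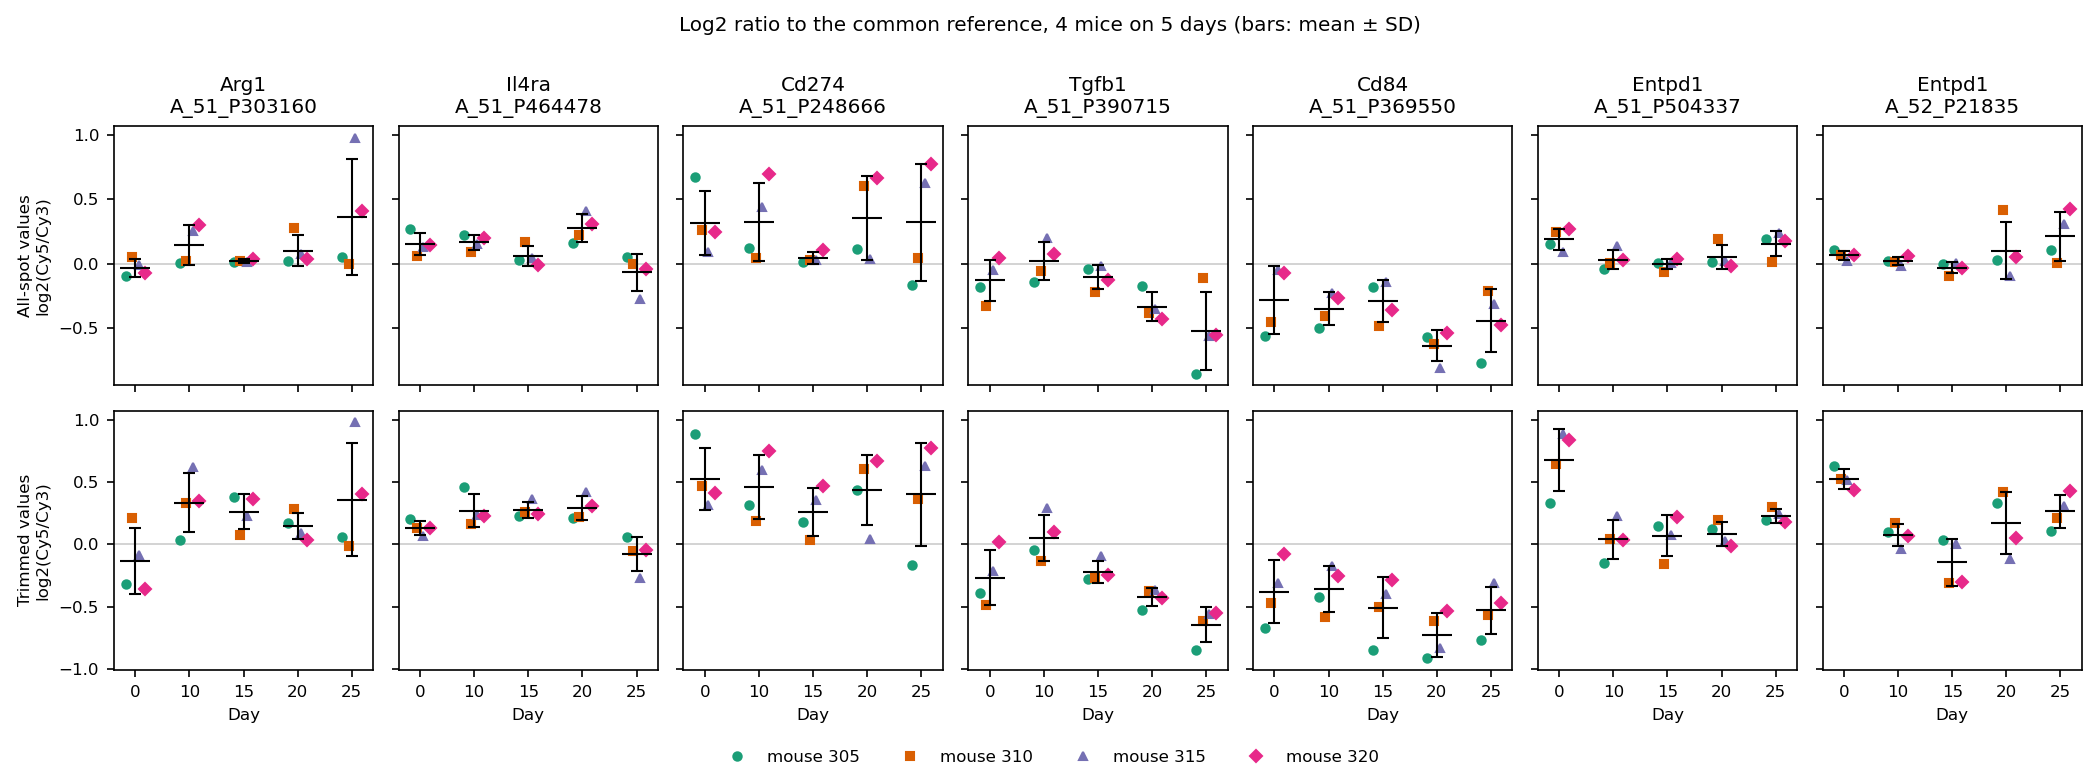
Log2(Cy5/Cy3) of the 7 probes that passed the filter (columns) in each of 4 mice (colours and symbols) on days 0, 10, 15, 20 and 25, from the fit on all spots (upper row) and the trimmed fit (lower row); bars give the mean ± SD of 4 mice. In the lower row the day 0 values of both Entpd1 probes lie above all later days, and Tgfb1 is lowest at day 25. The dimmer Entpd1 probe (A_52_P21835) met the filter only through days 0 and 25, so its high day 0 values are no independent support.

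Tgfb1 encodes TGF-beta 1, a cytokine that restrains T cells and is carried in quantity by platelets. It was lower at day 25 than at day 10 under both fits. Its all-spot log2 ratios at day 10 were -0.14, -0.06, 0.20 and 0.08 in mice 305, 310, 315 and 320, and at day 25 they were -0.85, -0.11, -0.56 and -0.55. Only mouse 310 at day 25 lay within the range of day 10. The change was -0.54 (SE 0.12, adjusted p = 0.00261), lower in 4 of 4 mice, where 31.5% of all probes passed. With each array left out it ran from -0.68 to -0.43 and passed each time. That array of mouse 310 was among those whose ratios lay near 0, with 81.1% of probes within 0.05 of it and 20.1% after trimming.

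In the trimmed values Tgfb1 was -0.39, -0.48, -0.21 and 0.01 at day 0, and -0.04, -0.14, 0.29 and 0.10 at day 10. It was -0.28, -0.27, -0.10 and -0.24 at day 15, and -0.52, -0.38, -0.37 and -0.43 at day 20. Day 25 gave -0.85, -0.62, -0.56 and -0.55, and these did not overlap with any other day. The change from day 10 to day 25 was -0.70 (SE 0.10, adjusted p = 3.85e-05), or 1.62-fold lower, where 35.9% of all probes passed. Against day 0, Tgfb1 was higher at day 10 by 0.32 (adjusted p = 0.0221) and lower at day 25, with a change of -0.38 (adjusted p = 0.0208). The first call was lost without day 0 mouse 305 or 310 or day 10 mouse 315 or 320, at an adjusted p of up to 0.0886. The second was lost without day 0 mouse 315 or 320 or day 25 mouse 305, at up to 0.0862. Days 15 and 20 changed by 0.05 and -0.16 and did not pass. In the all-spot values day 10 changed by 0.15 and day 25 by -0.39, with adjusted p of 0.449 and 0.123. Without day 25 mouse 310 the latter was -0.53 and passed (adjusted p = 0.00429), as did day 25 against day 20 (-0.32, adjusted p = 0.0221).

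The order of the Tgfb1 trimmed means was day 10 (0.05 ± 0.18, SD, n = 4), day 15 (-0.22 ± 0.09), day 0 (-0.27 ± 0.22), day 20 (-0.42 ± 0.07) and day 25 (-0.65 ± 0.14). Neighbours in this order did not pass the test. Day 15 against day 10 gave an adjusted p of 0.180, day 15 against day 0 gave 0.758, day 20 against day 0 gave 0.296 and day 25 against day 20 gave 0.153. The probe was printed 10 times. The SD between its spots on an array had a median of 0.06, and the SD between mice within a day had a median of 0.15, both in all-spot values. Markers of other blood cells also differed between days 10 and 25. Of 4 erythroid markers, 4 were lower in all-spot values (median -1.37) and 3 in trimmed values (median -1.16), and their mean trimmed log2 ratio was 0.48 to 1.23 at day 10 and -0.61 to -0.09 at day 25. In both fits 3 of 6 T cell and 2 of 6 B cell markers were higher, as were 2 of 8 mature neutrophil markers (4 trimmed). In all-spot values 1 of 8 monocyte markers was higher, and 0 of 6 immature granulocyte markers passed. Over all probes 31.5% passed in this comparison, and 35.9% after trimming. The mean trimmed log2 ratio of 6 platelet markers was -1.09 to -0.41 at day 10 and -1.04 to -0.36 at day 25. Of that list Itga2b, a platelet integrin chain, changed by -0.95 (all-spot, adjusted p = 0.00153). The rest did not pass in all-spot values. Ppbp changed by 0.38, Pf4 by 0.27, Treml1 by 0.20, Gp1ba by -0.09 and Gp9 by -0.13. The part of these cells in the Tgfb1 result was not tested. The genes most like Tgfb1 over the 20 arrays in all-spot values were Pygb (r = 0.956), Mob3a (0.953) and Gnaz (0.946).

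Il4ra encodes the alpha chain through which IL-4 and IL-13 signal. It was lowest at day 25 under both fits. The all-spot log2 ratios at day 20 were 0.16, 0.22, 0.41 and 0.31 in mice 305, 310, 315 and 320, and at day 25 they were 0.05, -0.00, -0.27 and -0.04. The days did not overlap. The change was -0.34 (SE 0.07, adjusted p = 0.00430), lower in 4 of 4 mice, where 23.2% of all probes passed. It passed with any 1 array left out, from -0.38 to -0.27. Against day 10, whose values were 0.22, 0.09, 0.15 and 0.20, day 25 was lower in 4 of 4 mice, with a change of -0.23 (adjusted p = 0.0170). That call was lost without day 25 mouse 315, at -0.16 and an adjusted p of 0.0664. Day 20 against day 15 (0.21 in all-spot values) passed without day 20 mouse 305, at 0.25 and an adjusted p of 0.0451, while its trimmed change was 0.01.

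The trimmed Il4ra values were 0.20, 0.13, 0.06 and 0.13 at day 0 and 0.46, 0.16, 0.24 and 0.23 at day 10. They were 0.23, 0.26, 0.36 and 0.25 at day 15 and 0.21, 0.22, 0.42 and 0.31 at day 20. At day 25 they were 0.05, -0.06, -0.27 and -0.04, below every value of the other days. The change was -0.37 from day 20 (adjusted p = 0.00329, 17.8% of all probes) and -0.35 from day 10 (adjusted p = 0.00200). Both passed with any 1 array left out. Against day 0, Il4ra changed by 0.14, 0.14, 0.16 and -0.21 at days 10, 15, 20 and 25, and none of the 4 passed (adjusted p = 0.182, 0.163, 0.166 and 0.0774). Between days 20 and 25, 3 of 4 erythroid markers were lower (median -0.80), and 2 in trimmed values (median -0.85). In both fits 3 of 8 mature neutrophil, 2 of 6 platelet and 1 of 6 T cell markers were higher. In all-spot values 1 of 6 B cell markers was higher and 1 lower, and 1 of 6 immature granulocyte markers was lower. Over all probes 23.2% passed in this comparison, and 17.8% after trimming. The mean trimmed log2 ratio of the erythroid markers was 0.04 to 0.88 at day 20. Those at day 10 are given above with Tgfb1, and the part of these cells in the Il4ra result was not tested. The genes most like Il4ra in all-spot values were Glrx2 (r = 0.889), 1700019N19Rik (0.859) and Kctd20 (0.853).

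Arg1 is the arginase whose activity deprives T cells of arginine. Its level lay near background, and its values spread widely between mice. The trimmed log2 ratios were -0.32, 0.21, -0.08 and -0.36 at day 0 in mice 305, 310, 315 and 320. They were 0.03, 0.33, 0.62 and 0.35 at day 10, and 0.38, 0.08, 0.23 and 0.36 at day 15. Day 20 gave 0.17, 0.28, 0.09 and 0.04, and day 25 gave 0.06, -0.01, 0.98 and 0.41. At day 10 it was higher than at day 0 by 0.47 (SE 0.17, adjusted p = 0.0359) in 4 of 4 mice, with overlap between the days. The range without 1 array was 0.38 to 0.59. The call was lost, at up to 0.117, without day 0 mouse 305, 315 or 320, or day 10 mouse 310, 315 or 320. At day 25 the change was 0.49 and did not pass (adjusted p = 0.0532), though it did with the mouse as a fixed block (adjusted p = 0.0421), and without day 0 mouse 310, day 10 mouse 305, day 25 mouse 305 or day 25 mouse 310. Day 15 (0.40, adjusted p = 0.0694) passed without day 0 mouse 310 or day 25 mouse 315, and the F test without day 0 mouse 310 or day 25 mouse 310 or 315. In the all-spot values Arg1 changed by 0.18 at day 10 and 0.39 at day 25, with adjusted p of 0.457 and 0.172. The latter passed without day 25 mouse 310, at 0.51 and an adjusted p of 0.0291, and was 0.19 without day 25 mouse 315. The day 25 mean rested on mice 315 and 320. Reference signal for this probe was not well above background on any array, so its ratio has a denominator near the floor. The net Cy5 signal was lower at day 10 (8.38 to 38.6) than at day 0 (54.3 to 140), while net Cy3 was -2.25 to 4.56 against 78 to 151. The median spot of the day 0 slide was also brighter in both channels. A lower net Cy5 signal at day 10 therefore does not show less Arg1 RNA in the blood. The ratio at day 10 rested on a reference signal near 0.

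Cd274 encodes PD-L1, the ligand through which cells inhibit T cells bearing PD-1. No comparison of its bright probe passed under either fit. The trimmed log2 ratios were 0.88, 0.47, 0.32 and 0.41 at day 0 and 0.31, 0.19, 0.60 and 0.75 at day 10. They were 0.18, 0.04, 0.35 and 0.47 at day 15, 0.43, 0.61, 0.04 and 0.67 at day 20, and -0.17, 0.36, 0.63 and 0.77 at day 25. Every day overlapped with day 0. The 95% interval of the trimmed change against day 0 was -0.43 to 0.32 at day 10, -0.64 to 0.11 at day 15, -0.46 to 0.29 at day 20 and -0.50 to 0.26 at day 25. Changes within these intervals are compatible with the values of the 4 mice.

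Cd84 encodes a self-binding receptor found on myeloid cells, platelets and lymphocytes. Its trimmed log2 ratios were below 0 on all 20 arrays. They were -0.67, -0.47, -0.31 and -0.08 at day 0, -0.43, -0.58, -0.17 and -0.25 at day 10, and -0.85, -0.50, -0.40 and -0.29 at day 15. At day 20 they were -0.92, -0.62, -0.83 and -0.54, and at day 25 they were -0.77, -0.57, -0.31 and -0.47. The day 20 change from day 0 was -0.34 (SE 0.14) in 4 of 4 mice and did not pass (adjusted p = 0.0796). With the mouse as a fixed block it passed (adjusted p = 0.0149), as did the F test (adjusted p = 0.0169). With the mouse as a random block neither passed (adjusted p = 0.0601 and 0.0985). Without day 0 mouse 305 the change was -0.44 (adjusted p = 0.0390), the only 1 of 20 arrays whose removal gave a call. The all-spot change was -0.35 (adjusted p = 0.112). Over the 20 arrays the trimmed values of Cd84 and Tgfb1 had a Pearson r of 0.607.

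**Figure D3:**
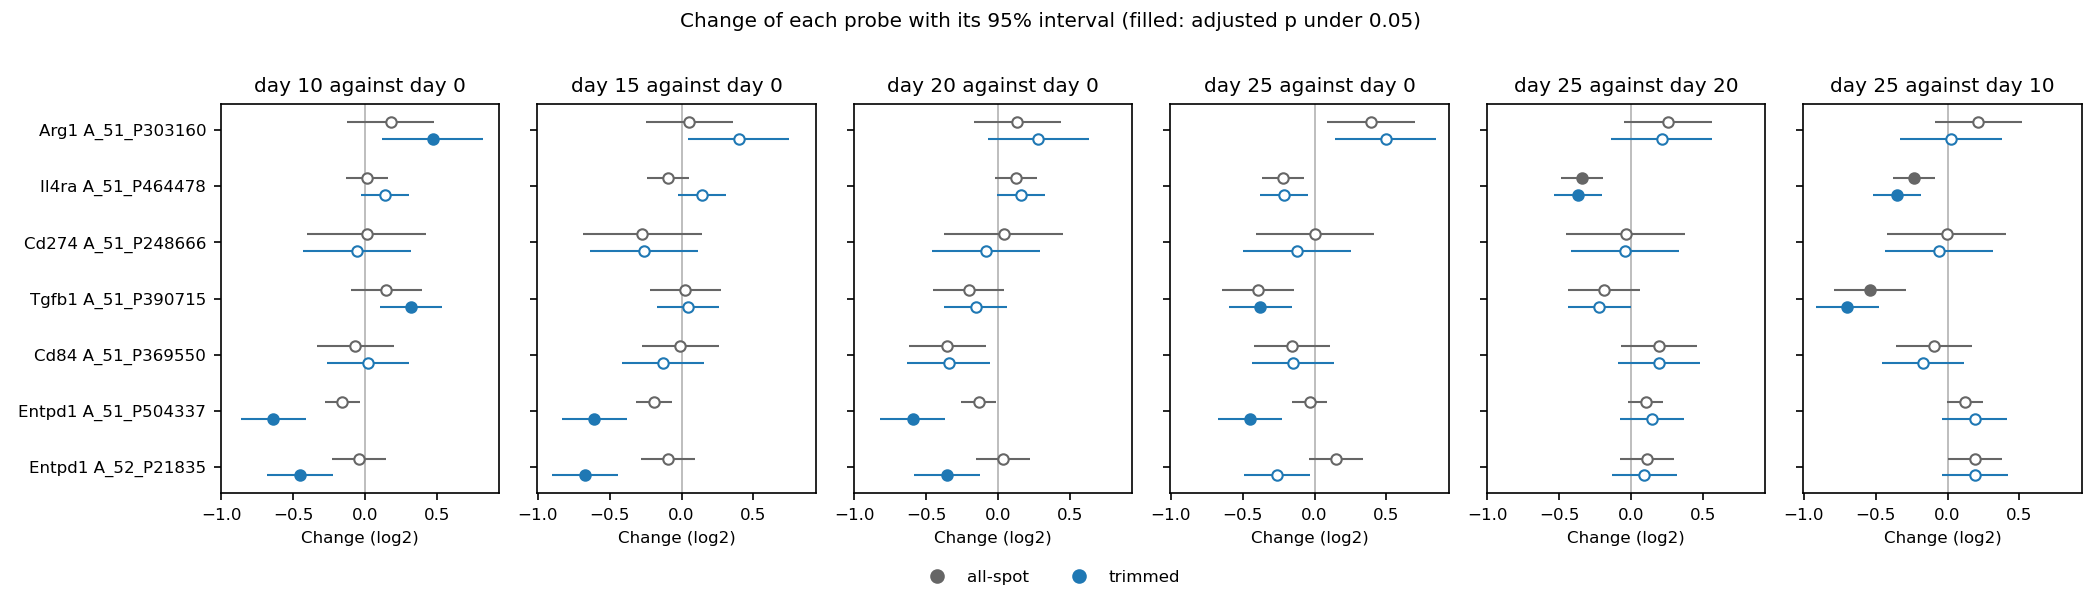
Change in log2(Cy5/Cy3) of each of the 7 probes (rows) with its 95% interval in 6 comparisons (panels), from the fit on all spots (grey) and the trimmed fit (blue); filled points passed at an adjusted p under 0.05. Tgfb1 and Il4ra at day 25 against day 10 are filled in both, and the brighter Entpd1 probe (A_51_P504337) against day 0 is filled in the trimmed fit; the tests of the dimmer one (A_52_P21835) are not used.

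Other genes of the same pathways were counted from lists that had 5 to 15 genes with a probe that passed the filter. Counts are all-spot, followed by trimmed where both are given. At day 25 against day 10, the TGF-beta list (11 genes) had 6 higher and 1 lower, and 4 and 1 after trimming, where 31.5% of all probes passed in either direction, and 35.9% after trimming. The same shares apply to the other lists at day 25 against day 10. Smad4, the shared partner of the receptor-activated SMADs, was higher by 0.48 (adjusted p = 0.000369), and Tgfbr2, the receptor that binds the ligand, by 0.42 (adjusted p = 0.00327). Trimmed, they were 0.44 and 0.36. The same Smad4 probe was lower at day 10 than at day 0 (-0.35, adjusted p = 0.0104). A second Smad4 probe changed by 0.09 at day 25 against day 10 and did not pass (adjusted p = 0.246). With scaling between arrays the list had 0 higher and 1 lower.

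The purine list (11 genes), which shares its pathway with Entpd1, had 1 higher and 5 lower at day 25 against day 10, and 1 and 4 after trimming. Adora2a, the adenosine receptor that restrains T cells and neutrophils, was higher at day 10 against day 0 by 0.91 (adjusted p = 0.00572; trimmed 0.74) and lower at day 25 than at day 10, with a change of -0.93 (trimmed -0.82). With the median in place of loess these changes were -0.62 and 0.32, and the second was 0.54 in Cy5 alone, so its direction turned. Its other probe changed by 0.03 in the latter, so the probes disagree. Against day 0, this list had 2 higher and 2 lower at day 10 in trimmed values, and 3 higher and 4 lower at day 15. In all-spot values it had 1 and 0 at each of these days. Over all probes, 36.5% and 38.8% passed at these days in trimmed values, and 11.2% and 5.89% in all-spot values.

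The IL-4 and IL-13 list (8 genes) had 0 higher and 1 lower at each of days 10, 15 and 20 against day 0 (all-spot). Over all probes, 11.2%, 5.89% and 2.94% passed at these days. The lower gene was Il13ra1, which pairs with Il4ra, with changes of -0.18, -0.19 and -0.27 (adjusted p = 0.0382, 0.0483 and 0.0160). Its second probe changed by -0.10, -0.09 and -0.17, and only the last passed. Trimmed, these were -0.68, -0.77 and -0.85. At day 25 the list had 2 higher and 0 lower against day 20, and 0 and 1 against day 10 (all-spot). Over all probes 23.2% and 31.5% passed in these 2 comparisons. The arginine list (6 genes) had no call at all in all-spot values and 1 lower gene on each later day after trimming. Over all probes, 36.5%, 38.8%, 19.6% and 15.3% passed against day 0 at those days (trimmed). In the prostaglandin list (9 genes), 1 was lower at day 15 against day 0, where 5.89% of all probes passed. This was Alox5, the enzyme that starts leukotriene synthesis, with a change of -0.59 (adjusted p = 0.0158, trimmed -0.66). Its other probes changed by -0.41, which passed, and -0.08, which did not. The checkpoint list (5 genes) had 2 higher and 0 lower at day 25 against day 10, and 3 and 0 trimmed; Icosl, a costimulatory ligand, was higher by 0.44. In the VEGF and hypoxia list (11 genes), Pgf, a VEGF-related growth factor, was the 1 lower gene in the same comparison, where 1 other was higher. It changed by -0.79 (adjusted p = 0.000744; trimmed -1.10). The SLAM list (10 genes) had 4 higher and 0 lower there, and 1 and 0 trimmed. Slamf6, a lymphocyte receptor of the family, was higher by 0.36 (trimmed 0.41), though its other probe changed by -0.08 and Cy5 alone gave -0.11.

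Genes that mark the identity of these myeloid cells (15 genes) passed the test in a single direction against day 0, except that scaling between arrays had 1 higher at days 10 and 15. In all-spot values 0 were higher and 7, 6, 7 and 2 were lower at days 10, 15, 20 and 25, where 11.2%, 5.89%, 2.94% and 0.148% of all probes passed in either direction. Trimmed, 0 were higher and 8, 9, 8 and 6 were lower, where 36.5%, 38.8%, 19.6% and 15.3% of all probes passed. The list median was -0.25, -0.39, -0.10 and -0.07 in all-spot values and -0.38, -0.43, -0.37 and -0.23 in trimmed values. Several of its genes are also mature neutrophil markers, among them S100a8, S100a9, Csf3r and Cxcr2.

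**Figure D4:**
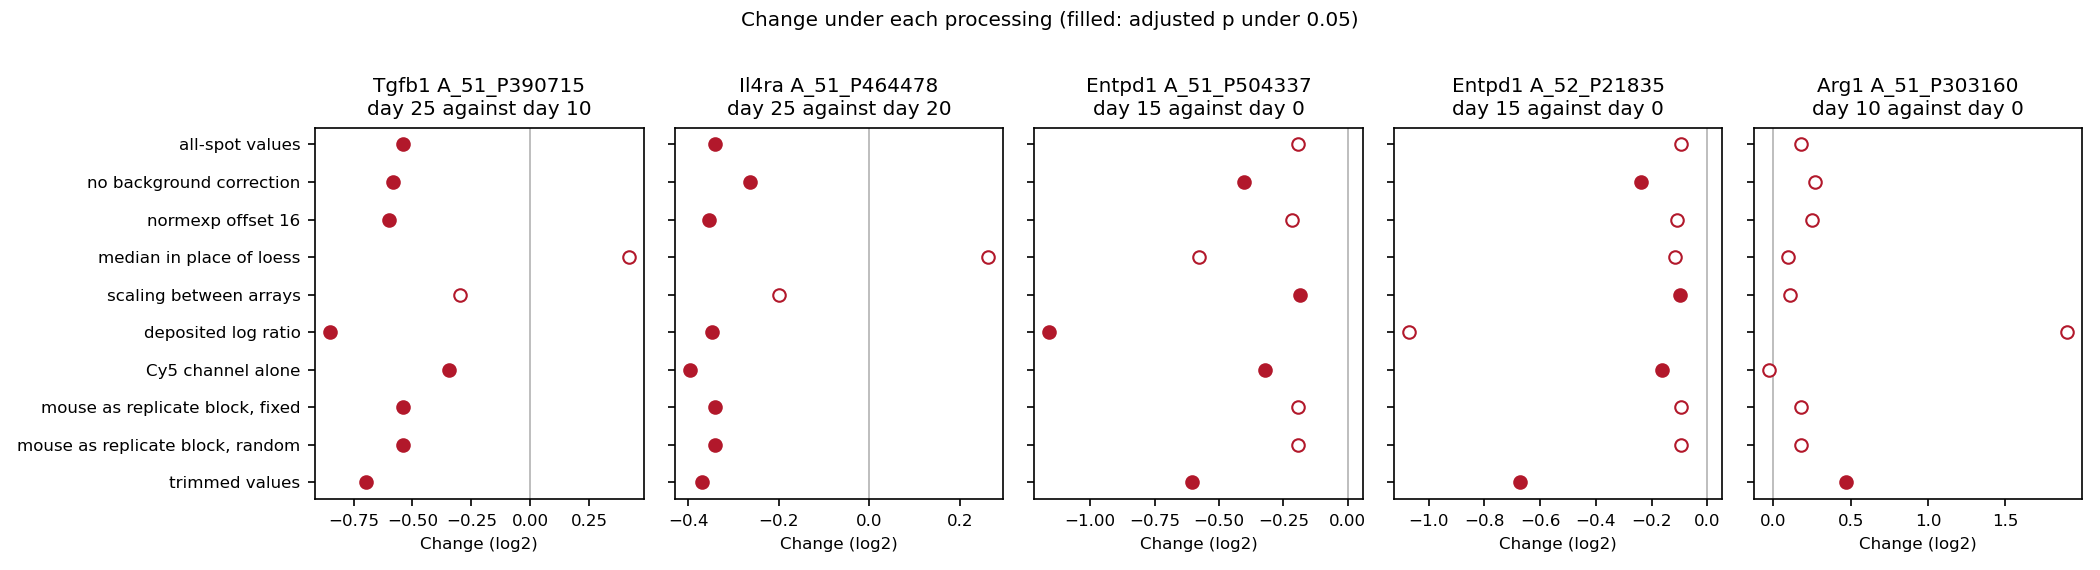
Change in log2 of 5 member results (panels) under each processing (rows); filled points passed at an adjusted p under 0.05. At day 15 against day 0, the only Entpd1 comparison drawn, both probes lie below 0 under every processing. The dimmer one (A_52_P21835) was kept only through its brighter days, so it gives no support and its tests are not used. Tgfb1 and Il4ra, in the day 25 comparisons drawn, turn positive only with the median in place of loess.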

How the data were processed

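Per the labels, blood was kept in RNAlater, the RiboPure-Blood kit gave the RNA and QuickAmp the labelled product. The deposited intensity values are the mean signal and median local background of each spot, output, per the file headers, of Feature Extraction (version 9.1.3.1). The deposited log10 ratios of red over green came from that software's processed signals, and the authors' value table held the same numbers (900360 of 900360 values, to within 1e-06). Probe names were matched to a RefSeq gene table. Coordinates are not used here.

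Here, normexp (offset 50), loess within arrays with control spots at weight 0, and limma 3.58.1 in R 4.3.3 were used. Spots marked non-uniform were dropped and spots of a probe averaged. Probes needed Cy5 signal well above background on 4 or more of the 20 arrays, and a value on 3 or more arrays of each day. Log2 ratios were fitted with 5 day means, no block, two-sided tests and Benjamini-Hochberg adjustment. The primary fit was kept as designed although its normexp step was found at fault; the trimmed fit leaves out spots with a net signal under -50 in either channel before normexp and was chosen after the data had been seen. It kept 20896 probes. Folds of the dimmer Entpd1 probe compare Cy5 means after loess and Aquantile, and are open to dye bias. They were planned as bounds, with dim days raised to the lowest signal well above background. The probe's own signal was higher than that throughout, so no value was raised. The fit was run on simulated log2 ratios with independent noise. The simulation held no background step and no slide effect, so it has no bearing on the normexp fault or on day and slide. The number of arrays limits the precision.

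The mouse numbers pair the samples, since each mouse gave blood on every day. After each day's mean was removed, the correlation averaged 0.0846 for 40 same-mouse pairs of arrays and -0.0287 for 120 pairs from different mice. The members and lists were chosen with earlier results of these data known. Genes of each list were named by the F test, at most 2 per list, and genes most like a member by Pearson r.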

Additional observations from a re-analysis of the deposited data

Results flagged for a closer look

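The highest of the 4 Cd274 values at day 15 stood apart from the others. On probe A_51_P248666 mouse 320 had an all-spot log2 ratio of 0.11, while the other 3 mice lay between 0.01 and 0.03, and the gap was 0.849 of the group's range, past Dixon's critical value for 4 samples. The trimmed values of that day were 0.18, 0.04, 0.35 and 0.47, in which mouse 320 did not stand apart in this way. In all, 35 groups of 4 were examined, and chance marks about 1 in 20.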

How the results depend on the processing

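Counts of member probes that passed against day 0 at days 10, 15, 20 and 25, and in the F test, were 0, 0, 0, 0 and 2 in the all-spot values. The trimmed fit gave 4, 2, 2, 2 and 4, no background correction 3, 2, 2, 2 and 4, and the Cy5 channel alone 2, 5, 2, 1 and 4. The deposited log ratio gave 2, 1, 1, 0 and 4, scaling between arrays 1, 2, 1, 1 and 1, and the median in place of loess 3, 0, 0, 0 and 0. With each array left out, day 15 ranged from 0 to 1, day 25 from 0 to 2 and the F test from 2 to 3. An offset of 16, the filters on dim probes and 1 row per gene changed none of these 5 counts. Except under the strictest filter and 1 row per gene, the counts include the dimmer Entpd1 probe (A_52_P21835), whose tests are not used. Without it the trimmed fit gave 3, 1, 1, 2 and 3 of 6 probes. The other settings were not recounted without it.

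The mouse as a replicate block, fixed or random, also left the all-spot counts at 0, 0, 0, 0 and 2. In the trimmed values the block added only Arg1 at day 25 (0.49, adjusted p = 0.0421 fixed, 0.0453 random) and, when fixed, Cd84 at day 20 (-0.34, adjusted p = 0.0149) and in the F test (adjusted p = 0.0169), and changed no other member call.

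Centring arrays on the median, not loess, turned the sign for Tgfb1 (0.42) and Il4ra (0.89) at day 25 against day 10 and for Il4ra at day 25 against day 20 (0.26). Il4ra was then -1.26 at day 10 against day 0 and Cd84 1.07 at day 25 against day 10. That setting moved the median of all probes to 0.39 at day 25 against day 10 and -0.40 at day 10 against day 0. Entpd1 A_52_P21835 at day 20 against day 0 turned to -0.23 without background correction and -0.36 in the trimmed fit. With scaling between arrays Tgfb1 at day 25 against day 10 was -0.30 (adjusted p = 0.0831), and Il4ra was -0.19 (0.0876) there and -0.20 (0.187) against day 20. With Cy5 alone Il4ra at day 25 against day 10 was -0.13 (0.183). The cause of these was not tested.

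Over all probes, 2343, 1230, 615 and 31 passed against day 0 at days 10, 15, 20 and 25. The trimmed fit gave 7634, 8106, 4095 and 3200, no background correction 8247, 8269, 3720 and 2925, and the deposited log ratio 6366, 9151, 2474 and 806. Cy5 alone gave 5263, 9828, 5268 and 2448, scaling 3771, 6061, 827 and 561, and the median 9250, 3, 3 and 0. The fixed block gave 1521 at day 20 and 275 at day 25, and the random block 63 at day 25. Probes well above background on all arrays gave 117 at day 25, an offset of 16 gave 47, and no filter gave 382 at day 20 and 12 at day 25. With each array left out these ranged from 850 to 3318, 642 to 1700, 107 to 3344 and 1 to 2256 (trimmed, 5911 to 8294, 6435 to 8387, 2423 to 4706 and 1584 to 4239). The F test passed 5648 (11581 trimmed, 11991 without background correction, 11604 deposited, 12887 Cy5, 3532 median), and day 25 against day 20 passed 4856 (134 with scaling, 0 with the median). Signal near background limits Arg1 and the dimmer Entpd1 probe.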
